A study of Mus musculus with 6 samples.

Results

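Intestinal stem cell genes and target genes of the Wnt pathway were examined in the jejunum of mice lacking HNF4A in the intestinal epithelium. The set was a named list of 10 genes, namely Lgr5, Olfm4, Ascl2, Smoc2, Axin2, Rnf43, Znrf3, Sox9, Ephb2 and Cd44. Each gene was represented by its brightest transcript cluster (the group of array probes that reports 1 transcript unit) among those annotated with exactly 1 gene symbol. By this rule 9 of the 10 genes were measured, out of 22180 genes on the array. Ephb2 had no cluster with a single symbol in the annotation used and was not analysed here. None of the 9 measured genes passed the test between mutants and controls. Their differences lay between -0.08 and 0.25 on the log2 scale, and the mutant and control values overlapped for each of the 9.

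Mice on a C57BL/6 background, adult when the jejunum was taken, received a diet rich in fat (high-fat diet, HFD) for 12 weeks, mutants and controls alike. The paper describes the mice weighed over such a diet as weaned. The age of each array mouse when the diet began was not given. The 3 mutants carried 2 floxed Hnf4a alleles (loxP/loxP) and a Cre transgene driven by a Villin promoter fragment (HNF4AΔIEC), and the 3 controls came from the same breeding, with their exact genotype not given in the sources used here. Villin-driven Cre acts in epithelial cells only, so fibroblasts, immune cells, muscle and nerve in the sample keep a functional Hnf4a gene. Total RNA was taken from the whole jejunum after ketamine and xylazine, and each mouse gave 1 Affymetrix array. The sex of each mouse, its litter and the scan batch were not given, and no batch could be tested. Whole jejunum holds few crypt base cells among many villus cells, and in such bulk RNA fewer cells of a type and less RNA per cell cannot be told apart.

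The intestinal epithelium is renewed by columnar stem cells at the crypt base, which depend on Wnt signalling through β-catenin and TCF factors. R-spondins bind the receptors LGR4 and LGR5 and clear the ubiquitin ligases RNF43 and ZNRF3, which otherwise remove Frizzled receptors from the cell surface. Rnf43, Znrf3 and Axin2 are themselves Wnt targets and dampen the pathway, whereas Ascl2, Smoc2, Olfm4 and Lgr5 mark the stem cells.

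Array medians lay between 5.53 and 5.58 log2 units, which the normalization used (robust multi-array average, RMA) makes nearly equal by design. Correlations over all clusters were 0.981 to 0.988 within groups and 0.977 to 0.986 between them. Such correlations mostly follow the differing levels of genes, so neither measure shows that the arrays behaved alike. Background was set at 5.43 log2 units, the level that 95% of 1105 olfactory receptor genes did not exceed in the control mice. All 12 jejunal enterocyte genes stood above it in both groups. The paper reports Hnf4a transcripts (by RT-qPCR) and protein as undetectable in the jejunum of mutants on HFD. On the arrays Hnf4a stayed above background in the mutants, and the reason for this was not tested. It read 9.49, 9.25 and 9.11 in the mutants and 10.74, 10.60 and 10.57 in the controls, with no overlap. This was a difference of -1.35 (SE 0.12 by limma over clusters with 1 symbol). The limma adjusted p was 0.00743 over clusters with 1 symbol and 0.111 over all clusters. Its paralog Hnf4g, which binds the same DNA elements, averaged 12.17 ± 0.11 in the mutants and 12.13 ± 0.11 in the controls (SD, n = 3).

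Promoter sequence from RefSeq (mouse assembly GRCm38.p6) was available for 6 of the 10 genes, as 7 windows of 250 bases before to 50 after a start site. The parts before the start site are shown for Axin2, the feedback gene most often used as a Wnt reporter, and for Olfm4, a stem cell marker that also responds to Notch. Axin2 lies on chromosome 11 (chr11:108920099-108920348, plus strand) and Olfm4 on chromosome 14 (chr14:80000052-80000301, plus strand), both written 5′ to 3′. Capitals mark the motif letters that were found.
Axin2: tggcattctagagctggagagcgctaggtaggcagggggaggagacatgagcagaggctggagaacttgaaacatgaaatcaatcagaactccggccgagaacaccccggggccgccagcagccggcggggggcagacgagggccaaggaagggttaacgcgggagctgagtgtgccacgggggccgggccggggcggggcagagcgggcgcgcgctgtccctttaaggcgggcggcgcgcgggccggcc
Olfm4: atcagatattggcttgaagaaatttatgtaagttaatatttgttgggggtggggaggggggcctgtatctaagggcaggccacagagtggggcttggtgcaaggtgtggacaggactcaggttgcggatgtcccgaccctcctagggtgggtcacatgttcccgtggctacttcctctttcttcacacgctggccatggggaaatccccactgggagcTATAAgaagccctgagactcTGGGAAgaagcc
The Axin2 window was rich in G and C (70.0%, with 31 CpG dinucleotides), against 52.3% and 5 CpG for Olfm4 and a median of 52.7% over all windows. TCF letters (CAAAG after 2 bases that are each A or T, on either strand) occurred in none of the 7 windows and in 16.9% of all 32851 windows. HNF4 letters (CAAAGTC on either strand, which share CAAAG with the TCF letters) occurred in none of the 7 and in 4.44% of all. RBPJ letters, the Notch effector's (TGGGAA on either strand), were found in 2 of the 7 windows and in 25.6% of all. They began at -12 from the start site of Olfm4, and at -207 and -179 from that of Cd44. A TATAA box on the gene's own strand was found at -32 from the Olfm4 start and in 17.5% of all windows. A match is a description of letters and not a binding site, and an absent match concerns these windows only.

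The question put to each gene was whether its level differed between mutant and control jejunum. Differences are given as mutant minus control in log2 units. For the 9 genes, errors and 95% intervals are from limma over all transcript clusters. Errors of all other genes are from limma over clusters with 1 symbol. At an adjusted p under 0.10, limma called 0 of the 9 genes over all clusters, where 0.0121% of 41345 clusters were called. Over the 23521 clusters with 1 symbol it also called 0 of the 9, where 0.472% were called. At an unadjusted p under 0.05 the count was 0 of 9, where 8.99% of clusters with 1 symbol passed. None of the alternative settings tried, leaving out each array included, called any of the 9. With 3 mice a group the smallest two-sided p of an exact permutation test is 0.10, and none is printed for a single gene. Mutant and control values overlapped for 9 of 9 genes, where 14.3% of clusters with 1 symbol had groups that did not overlap. All 9 genes stood above background in both groups.

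Lgr5, the R-spondin receptor that marks crypt base columnar cells (chromosome 10, 115450314 to 115587780), read 7.39, 7.11 and 6.75 in the mutants and 6.83, 6.86 and 6.81 in the controls. Mutants 1 and 2 were above all controls and mutant 3 was below them all. The difference was 0.25 (SE 0.17, interval -0.14 to 0.64), with a limma adjusted p of 0.816 over all clusters and 0.695 over clusters with 1 symbol. The control values lay close together (SD 0.025) and the mutant values did not (SD 0.32, n = 3 in each group). A second, dimmer Lgr5 cluster was below background in both groups and differed by -0.23 with no overlap, at a limma adjusted p of 0.641 over clusters with 1 symbol. Averaged over both clusters, the Lgr5 difference was 0.0076.

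Olfm4, which encodes a secreted glycoprotein of the stem cell zone, read 11.73, 11.64 and 11.15 in the mutants and 11.22, 11.59 and 11.42 in the controls. The lowest value of all was in mutant 3, and the means of 11.51 ± 0.31 and 11.41 ± 0.18 (SD, n = 3) differed by 0.10 (SE 0.18, interval -0.33 to 0.53). Ascl2, the transcription factor that maintains stem cell identity, read 6.69, 6.52 and 6.36 in the mutants. Its controls read 5.96, 6.42 and 6.72 and so spanned the mutant range entirely. The Ascl2 difference was 0.16 (SE 0.20, interval -0.32 to 0.64), and without control 1 it was -0.04. Smoc2, a matricellular protein gene of the stem cell signature (chromosome 17, 14279490 to 14404790), read 7.65, 7.71 and 7.50 in the mutants and 7.57, 7.57 and 7.40 in the controls. Mutants 1 and 2 were above all controls, and mutant 3 lay within them. The difference was 0.11 (SE 0.11, interval -0.14 to 0.36). The limma adjusted p over all clusters was 0.937 for Olfm4, 0.904 for Ascl2 and 0.869 for Smoc2.

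The genes that restrain Wnt signalling had differences nearer to 0. Axin2, a scaffold of the β-catenin destruction complex (chromosome 11, 108917828 to 108950783), read 8.04, 7.78 and 8.04 in the mutants and 8.11, 8.01 and 7.84 in the controls. Mutant 2 was lowest and control 1 highest, and the group difference was -0.03 (SE 0.12, interval -0.32 to 0.25). A dimmer Axin2 cluster, with mutant values of 6.09, 6.02 and 5.99 and control values of 5.99, 5.91 and 6.20, gave a difference of 0.0005. Both clusters of Axin2 thus overlapped between groups. Rnf43, a ubiquitin ligase for Frizzled, read 8.31, 8.09 and 7.98 in the mutants and 8.16, 8.25 and 7.97 in the controls. Its group means were 8.13 ± 0.17 and 8.13 ± 0.15 (SD, n = 3), with a difference of -0.0014 (SE 0.13, interval -0.31 to 0.31). Znrf3, the related ligase (chromosome 11, 5276329 to 5444847), read 7.18, 7.04 and 6.91 in the mutants and 7.29, 7.02 and 7.05 in the controls. The Znrf3 groups overlapped and differed by -0.08 (SE 0.12, interval -0.36 to 0.21). The limma adjusted p over all clusters was 0.969 for Axin2, 0.999 for Rnf43 and 0.928 for Znrf3.

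Of the remaining Wnt targets, Sox9 had the smallest p of the set. SOX9 is a transcription factor of crypt progenitors and Paneth cells (chromosome 11, 112782210 to 112787757). It read 8.52, 8.38 and 8.25 in the mutants and 8.11, 8.08 and 8.28 in the controls. Mutants 1 and 2 were above every control, and mutant 3 lay just under control 3. The difference was 0.23 (SE 0.11, interval -0.04 to 0.50), or 1.17-fold higher, with a limma adjusted p of 0.748 over all clusters and 0.595 over clusters with 1 symbol. Leaving out each array in turn kept it between 0.16 and 0.29. Cd44 encodes a hyaluronan receptor found on crypt cells and also on leukocytes. It read 6.75, 6.72 and 6.35 in the mutants and 6.45, 6.67 and 6.71 in the controls, and differed by -0.0045 (SE 0.14, interval -0.35 to 0.34, adjusted p of 0.996 over all clusters by limma).

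**Figure D1:**
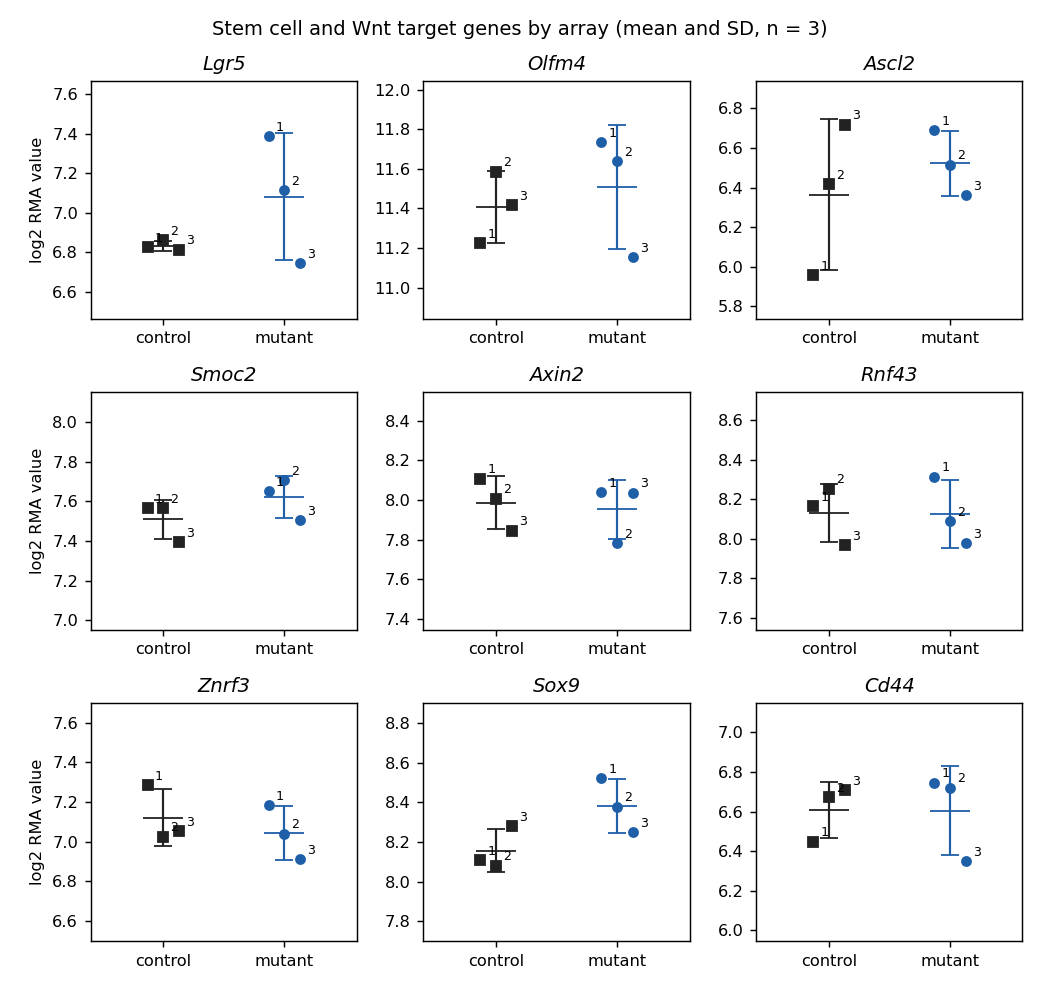
Log2 RMA values of the 9 measured genes on each array, with controls as black squares and mutants as blue circles. Horizontal lines are group means, bars are SD over 3 mice, numbers name the mice, and all panels span the same number of log2 units. Mutant and control values overlap for each gene, and the Lgr5 controls (SD 0.025) lie closer together than its mutants (SD 0.32).

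All 9 intervals included 0. The outermost bounds were -0.36 and 0.64, so a level up to 1.56-fold higher or 1.29-fold lower in the mutants lay within the interval of at least 1 gene. The median of the 9 differences was 0.10, beside 0.01 over all 22180 genes. Under the alternatives it ranged from -0.01 (without mutant 1) to 0.17 (without mutant 3). Differences were above 0 for 5 of the 9 genes and below 0 for 4, where 52.7% of all genes were above 0. The sign held under every alternative for Lgr5, Smoc2 and Sox9. It turned under at least 1 alternative for the other 6, and for Axin2, Rnf43 and Cd44 it turned when the quantile normalization was repeated.

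**Figure D2:**
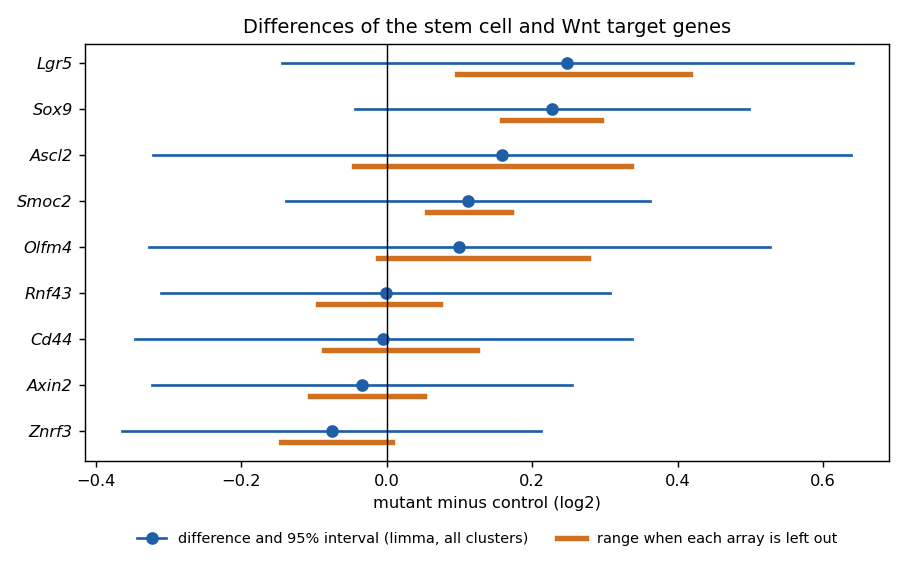
Difference of each measured gene, mutant minus control in log2 units, with the limma 95% interval over all clusters in blue and the range of values when each array is left out in orange. Every blue interval crosses 0, and the orange ranges of Lgr5, Smoc2 and Sox9 stay above it.

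The spread within groups ran partly by mouse. Mutant 1 was above its gene's mean over the 6 arrays for all 9 genes and had the highest value for 5 of them. Mutant 3 was below that mean for 8 of the 9 and had the lowest value for 4. Taken as the mean of the 9 genes relative to controls, the mutants stood at 0.24, 0.10 and -0.09 and the controls at -0.05, 0.04 and 0.01. The mutants thus lay on both sides of the controls. The array medians of mutants 1 and 3 were 5.56 and 5.55, but RMA equalizes medians, so they do not bear on this spread.

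After subtraction of each group's mean, Lgr5 correlated over the 6 arrays with Olfm4 at 0.85, Cd44 at 0.79, Rnf43 at 0.77, Sox9 at 0.73, Znrf3 at 0.66, Smoc2 at 0.59, Ascl2 at 0.38 and Axin2 at -0.04 (Pearson). These arrays are the same libraries, and the Lgr5 deviations come almost wholly from the mutants, so the values are descriptions only. Among 13387 other genes above background, the 5 most similar to Lgr5 by this measure were Zfp433 (0.999), Sim1 (0.995), Cyth2 (0.995), Igfbp2 (0.994) and Iscu (0.993). In all, 218 genes exceeded 0.9, and Olfm4, the closest of the set, ranked 404.

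Paneth cells sit between the stem cells and supply Wnt3, and their genes were set beside those of the stem cells. The mean of 13 Paneth genes relative to controls was 0.51, 0.61 and -0.29 in the mutants and -0.70, 0.39 and 0.31 in the controls. Control 1 was the lowest of the controls and mutant 3 the lowest of the mutants. Those same mice gave the lowest 2 of 6 values for 10 of the 13 Paneth genes, for Olfm4, Ascl2 and Cd44 among the 9 (33.3%), and for 8.07% of all genes, a pattern noticed after the values were seen. Among other lists this share was 28.6% for B and plasma cells, 23.5% for other crypt base stem cell genes and 20.0% for goblet cells. It was 0.0% for tuft cells, proliferation genes and jejunal enterocytes. Wnt3 itself read 6.02, 5.86 and 5.50 in the mutants and 5.58, 6.25 and 6.25 in the controls. It too was lowest in mutant 3 and control 1, and differed by -0.24 between groups (SE 0.20, adjusted p of 0.790 by limma over clusters with 1 symbol). The metalloproteinase gene Mmp7, which processes Paneth cell defensins, read 10.84, 11.05 and 9.82 in the mutants and 9.19, 10.39 and 10.31 in the controls. Between groups, 10 of the 13 Paneth genes were above 0, with a median of 0.19. Mptx1, above background in 1 group only, differed by 1.17 and Nupr1 by 0.65, both without overlap. Mptx2 differed by 1.05 with overlapping groups. The limma adjusted p over clusters with 1 symbol was 0.356, 0.374 and 0.680 in that order. None of the 13 passed the adjusted test. The part of the variation by mouse in the spread of the stem cell genes was not tested.

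**Figure D3:**
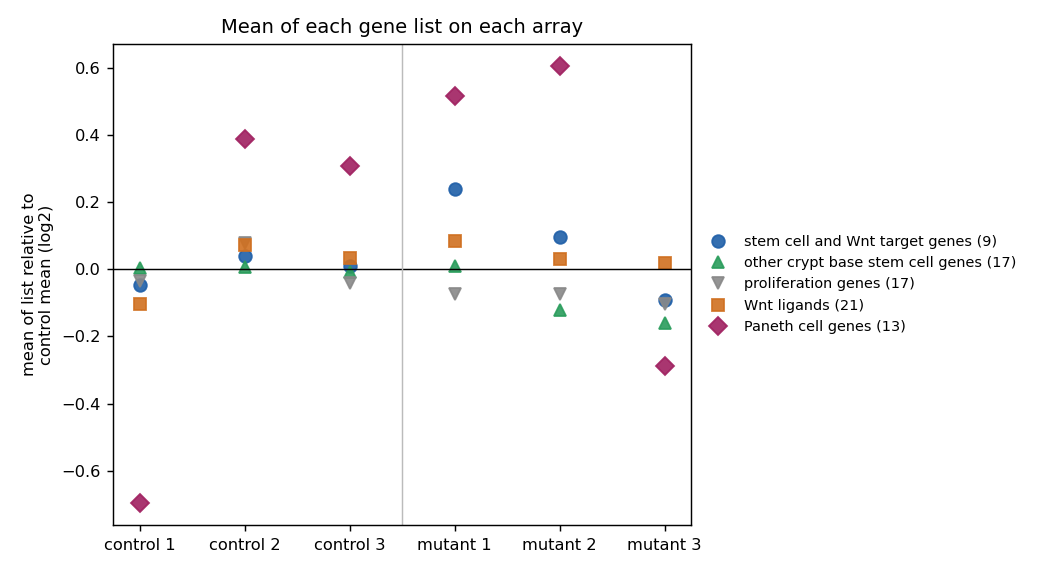
Mean of 5 gene lists on each of the 6 arrays, in log2 units relative to the mean of the 3 controls, with the number of genes in brackets. The Paneth cell list is lowest in control 1 (-0.70) and mutant 3 (-0.29), while the stem cell and Wnt target genes lie between -0.09 and 0.24.

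Other genes of the stem cell signature and of the pathway were described from lists, by role, with p-values by limma over clusters with 1 symbol. No gene of the 12 lists in this and the next 2 paragraphs was called in either fit. Of 17 further crypt base stem cell genes measured (18 listed), 8 were above 0 with a median of -0.07. At an unadjusted p under 0.05, 1 was higher and 4 were lower, where 1119 and 838 of all 22180 genes were. Prom1, a membrane glycoprotein of crypt cells, read 8.08, 8.26 and 8.23 in the mutants and 7.74, 7.70 and 7.91 in the controls. The groups did not overlap, as for 7.33% of clusters with 1 symbol in that direction, and differed by 0.41 (SE 0.10, adjusted p = 0.246). Aqp1, a water channel also present in vessels, differed by -0.37 (SE 0.10, adjusted p = 0.287), Nrn1 by -0.64 and Igfbp4 by -0.31. These 3 were lower without overlap, as were 7.01% of clusters with 1 symbol. The fourth lower gene, the lipoprotein receptor gene Scarb1 (-0.66), read 7.86, 6.87 and 7.97 in the controls and 6.95, 6.90 and 6.87 in the mutants, so control 2 lay with the mutants. The mean of 10 hepatocyte genes relative to controls had the same order in these controls (0.27, -0.71 and 0.44). A link between them was not tested. Of 7 reserve and injury-associated stem cell genes measured, 5 were above 0 with a median of 0.09. Clu, which marks revival stem cells after injury, read 8.26, 9.10 and 8.71 in the mutants and 8.06, 7.43 and 7.90 in the controls. Its groups did not overlap and its difference of 0.89 (SE 0.22), or 1.86-fold, had an adjusted p of 0.238 and ranged from 0.69 to 1.11 under the alternatives. The other reserve markers differed less, by 0.09 for Hopx, -0.0019 for Lrig1, 0.22 for Bmi1 and 0.22 for Anxa1.

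Upstream in the pathway, several genes were dim. Above background in both groups were 15 of 21 Wnt ligand and secretion genes and 5 of 6 R-spondins and LGR receptors. The count was 11 of 15 for Frizzled and LRP receptors and 7 of 11 for secreted Wnt inhibitors. Of the 21 Wnt ligand and secretion genes, 15 had a difference above 0, with a median of 0.05. Wnt9a differed by 0.30 (SE 0.11, adjusted p = 0.465), and Wnt2b, a stromal ligand, by 0.14. Wnt6 differed by -0.19 without overlap, and Porcn by 0.17 with overlapping groups. Of 6 R-spondins and LGR receptors, 4 were above 0 (median 0.10). Lgr4, the broadly expressed relative of Lgr5, read 9.28, 9.27 and 9.45 in the mutants and 9.20, 9.19 and 9.07 in the controls. Its groups did not overlap, and it differed by 0.18 (SE 0.10, adjusted p = 0.642). The stromal R-spondins Rspo1 and Rspo3 differed by 0.11 and 0.09, and Rspo4, below background in both groups, by 0.13. Among 15 Frizzled and LRP receptors, 7 were above 0 (median -0.0002), with Fzd4 at -0.30, Fzd7 at 0.22 and the coreceptor Lrp6 at -0.19. Of 11 secreted Wnt inhibitors, 7 were above 0 (median 0.13). Sfrp1, a decoy receptor for Wnt ligands, differed by 0.55 with controls of 7.14, 7.62 and 8.44, which overlapped the mutants (adjusted p = 0.621). Sfrp5 differed by -0.27 and Frzb, below background in both groups, by 0.32, both without overlap.

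Inside the cell, 4 of 13 destruction complex and transducer genes were above 0 (median -0.06), and β-catenin itself (Ctnnb1) differed by -0.06. Dvl1, which relays the Frizzled signal, was lower without overlap by 0.20 log2 units (-0.20, SE 0.09, adjusted p = 0.569). Dvl3 differed by -0.11 and Usp7 by -0.12, both with overlapping groups. Of 12 TCF factors and nuclear partners, 5 were above 0 (median -0.02), with the β-catenin inhibitor Ctnnbip1 at -0.27 and the corepressors Tle2 and Tle4 at -0.27 and -0.33. Other Wnt targets were evenly split, with 9 of 18 above 0 and a median of 0.0015. The cell cycle gene Ccnd1 differed by -0.34 (SE 0.14), Ets2 by -0.32, Bmp4 by 0.45 and Myc by 0.12. Among 8 Eph receptors and ephrins of the crypt-villus axis, 2 were above 0 (median -0.03), and Ephb3, which acts with Ephb2 in positioning crypt cells, differed by -0.04. Efnb2 differed by -0.21 without overlap, and Efna1 by -0.18 and Epha2 by 0.08 with overlapping groups. Above background in both groups were 7 of these 8 genes. The count was 10 of 12 for TCF factors and partners and 16 of 18 for other Wnt targets. For the Notch pathway, 5 of 12 genes were above 0 (median -0.04). Atoh1, the secretory lineage factor, differed by 0.24 without overlap (adjusted p = 0.611) and the Notch target Hes1 by 0.04. Jag1 differed by -0.26 and Jag2 by 0.21, both with overlapping groups. Among 17 proliferation genes, 6 were above 0 (median -0.08). Birc5, a mitotic survivin gene, read 5.55, 5.62 and 5.61 in the mutants and 6.04, 5.97 and 5.91 in the controls, close to background. It differed by -0.38 (SE 0.09, adjusted p = 0.209, and 0.098 when dim clusters were left out). Top2a differed by -0.30 (SE 0.10, adjusted p = 0.416) and Mcm3 by 0.22 (SE 0.10, adjusted p = 0.540), both without overlap. Mki67 differed by -0.13 with overlapping groups. Of the 17 genes, 2 were higher and 3 lower without overlap, beside 7.33% and 7.01% of clusters with 1 symbol.

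**Figure D4:**
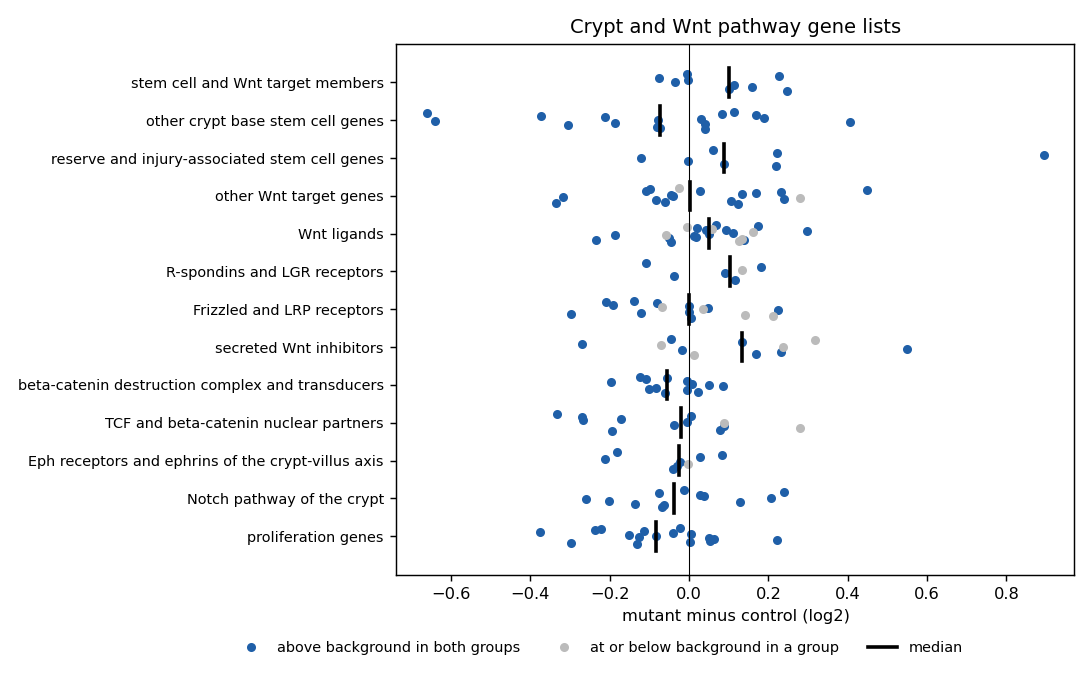
Difference of each gene, mutant minus control in log2 units, for the 9 measured stem cell and Wnt target genes and 12 related lists. Blue points are above background in both groups, grey points are not, and black bars are list medians. List medians lie between -0.08 and 0.13, and Clu (0.89) is the point farthest from 0.

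Markers of other cells in whole jejunum moved with the groups for some cell types. Of 10 T and NK lymphocyte genes, 4 fell over clusters with 1 symbol, 0 were called over all clusters, and 8 were below 0. The list mean relative to controls was -0.45 to -0.67 in the mutants and -0.10 to 0.06 in the controls. Among them the chemokine gene Ccl5 fell by 0.88 (-0.88, SE 0.11, limma adjusted p = 0.0320, and 0.226 over all clusters). Macrophage and dendritic cell genes were above 0 for 9 of 9 and 0 were called. Their list means overlapped, at 0.13 to 0.38 in the mutants and -0.23 to 0.23 in the controls. B and plasma cell genes were above 0 for 4 of 7. Cd44, which lymphocytes also carry, differed by -0.0045 as given above. Goblet cell genes were above 0 for 10 of 10 (list means 0.24 to 0.39 in the mutants, -0.26 to 0.13 in the controls) and 0 were called. Tuft cell genes were above 0 for 9 of 9, at 0.26 to 0.35 against -0.01 to 0.02, and Avil rose (0.49, SE 0.09, adjusted p = 0.0879 by limma over clusters with 1 symbol). Over all clusters the adjusted p of Avil was 0.324, and 4 of 13 alternatives called it. Fibroblast and niche stroma genes, a source of R-spondins, were above 0 for 10 of 10, with overlapping list means of 0.08 to 0.32 in the mutants and -0.13 to 0.11 in the controls. Smooth muscle genes were below 0 for 6 of 6, at -0.41 to -0.03 against -0.26 to 0.43. Of 10 hepatocyte genes, 6 fell over clusters with 1 symbol and 0 were called over all clusters by limma. All 10 were below 0, at -2.05 to -1.40 against -0.71 to 0.44, and 4 of the 10 were above background in both groups. Calls over clusters with 1 symbol are to be read against the 0.472% given above. The list mean of the 12 jejunal enterocyte genes lay between -0.05 and 0.05 on every array. Of 10 enteroendocrine genes, 8 were above 0 and 2 fell over clusters with 1 symbol. These were the hormone genes Gip (-0.97, SE 0.14, limma adjusted p = 0.0511, and 0.287 over all clusters) and Nts (-0.92, SE 0.17, limma adjusted p = 0.0989, and 0.413 over all clusters). The enteroendocrine list means overlapped, at -0.02 to 0.09 against -0.16 to 0.29. The part of these cell types in the values of the stem cell genes was not tested.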

How the data were processed

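Deposited values were log2 expression values that the authors made from the arrays by robust multi-array average (RMA); the labels also name the Transcriptome Analysis Console. RMA equalizes array distributions, so a global difference in RNA per cell is not kept. Identifiers are of the Mouse Gene 2.0 ST type, although another Affymetrix mouse array is named in the methods. Of 41345 transcript clusters, 23521 carried exactly 1 gene symbol, 1820 several and 16004 none. Gene positions came from RefSeq (GRCm38.p6).

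Mutants and controls (3 and 3 arrays, grouped by title) were compared with limma 3.58.1 in R 4.3.3 (two-sided, empirical Bayes). Adjustment by Benjamini-Hochberg was done over all clusters and over clusters with 1 symbol, and genes were called at an adjusted p under 0.10. The p-values measure the spread between these mice, and the number of arrays limits the precision. The fits were tested on simulated data. The genes and lists were chosen with earlier results of these data known. Named genes were the listed genes, Hnf4a, Hnf4g, called genes, the 3 with the smallest p of each list and the 5 most similar to Lgr5. Igfbp4, Scarb1, Hopx, Lrig1, Wnt3, Wnt2b, Rspo3, Ctnnb1, Myc, Ephb3, Hes1, Mki67 and Mmp7 were added after values were seen, and the genes of the lists of other cell types are mostly given as counts. Alternatives covered a filter on dim clusters, repeated quantile normalization, centring, the variance model, array weights, unmoderated statistics, replicate number as a block, thresholds, the cluster standing for a gene, and leaving out each array.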

Additional observations from a re-analysis of the deposited data

How the results depend on the processing

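None of the 9 stem cell and Wnt target genes was called by limma under any alternative, and the smallest adjusted p among them was 0.405. Their median difference of 0.10 ranged from -0.013 to 0.17 over 14 alternatives. The number of clusters called moved more. Over all clusters it was 5, against 38 with dim clusters left out, 17 with an intensity trend and robust prior, and 0 with unmoderated statistics or an adjusted p under 0.05. Over clusters with 1 symbol it was 111, against 214, 190, 0 and 30 in that order. Leaving out 1 array gave 0 (without mutant 1, 2 or 3, or control 1) to 16 (without control 2) over all clusters and 10 (without mutant 2) to 108 (without control 2) over clusters with 1 symbol. With the replicate block the counts were 0 and 64. Correlations of same-numbered mice, after subtraction of group means, were -0.08, 0.001 and -0.12. Subtracting means of 3 arrays ties such correlations to one another, so they cannot show whether the numbers pair mice. The labels do not say that they do.

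The sign turned for 6 of the 9 genes. Repeated quantile normalization gave 0.0092 for Axin2, 0.048 for Rnf43 and 0.010 for Cd44. Leaving out 1 array turned Olfm4 (-0.013 without mutant 1, up to 0.28), Ascl2 (-0.044 without control 1, up to 0.34), Axin2 (-0.11 to 0.051), Rnf43 (-0.095 to 0.073), Znrf3 (-0.15 to 0.0068, the latter without control 1) and Cd44 (-0.086 to 0.12). It also turned Epha2 (-0.097 to 0.23) and Hnf4g (-0.020 to 0.097). Lgr5 ranged from 0.10 without mutant 1 to 0.42 without mutant 3. With 3 arrays a group the precision differed by gene, and the widest bound among the 9 intervals was 1.56-fold, for Lgr5.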
